A study of Homo sapiens with 9 samples.

Results

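RNA polymerase II (RNAPII) peaks at the promoters of stand-alone long noncoding RNA (lncRNA) genes were examined in the human embryonic kidney line HEK293 upon depletion or overproduction of the DNA helicase RECQL5. A peak was counted when its summit, the position of highest signal, lay within 500 bp of the transcription start site (TSS) of a lncRNA transcript and over 5 kb from any protein-coding gene. The 5 peak lists held 1856 such peaks among 142069 in all. There were 102 of 5287 in the shCTRL list, 315 of 23698 after shRNA5, 418 of 32124 after shRNA7, 601 of 47060 without doxycycline and 420 of 33900 with it. They belonged to 707 lncRNA genes, of which 375 carry an Ensembl identifier and no symbol.

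The shCTRL, shRNA5 and shRNA7 libraries came from HEK293 cells infected with lentivirus, which carried the empty pLKO.1 vector (shCTRL) or 1 of 2 short hairpin RNAs (shRNA) against RECQL5. The doxycycline libraries came from HEK293 T-REx cells, selected with Zeocin for a plasmid (pcDNA4/TO-RECQL5-FL) that makes full-length RECQL5 from a doxycycline-responsive promoter, and grown at 0.0 or 1.0 ng/ml of the drug. Both doxycycline lists therefore come from plasmid-carrying cells. Chromatin immunoprecipitation and sequencing (ChIP-seq) was done with an RNAPII antibody, and peaks were called against libraries made with non-specific IgG. Each group was 1 library, so no test between conditions was possible, and every interval given is a 95% interval that covers counting error only.

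An lncRNA is an RNAPII transcript that is not translated into a known protein. Many are capped, spliced and made from promoters built like those of protein-coding genes, where the polymerase often pauses just past the start. Some act as RNAs themselves, such as NEAT1 and MALAT1 at nuclear bodies, and others are host transcripts from which small nucleolar RNAs (snoRNAs) or microRNAs are cut. A lncRNA gene that stands apart from protein-coding genes has RNAPII at its promoter that cannot simply be read as that of a coding neighbour.

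The tags in all listed peaks, which are sequenced reads and not normalised for depth, numbered 842310 (shCTRL), 3778665 (shRNA5), 6698771 (shRNA7), 1449163 (no doxycycline) and 1539844 (doxycycline). Peaks on as few as 9 tags were listed in the doxycycline arm, while the weakest lncRNA promoter peak of the shCTRL list held 49. Of 6 genes known from HEK293 cells, VIM had a promoter peak in all 5 lists, and 1, 2, 3, 5 and 3 had one in the shCTRL, shRNA5, shRNA7, no doxycycline and doxycycline lists. None of 8 genes typical of other tissues had a promoter peak in any list.

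Sequences around the TSS are shown for 6 genes whose peaks carry the results below, each from 250 bases before the TSS to 50 from it on, in GRCh37 and on the strand of the gene. Capitals mark any of 6 sets of letters searched on both strands, namely the TATA box (TATAAA), the CCAAT box (its name gives the letters), the GC box (GGGCGG), the cyclic AMP response element or CRE (TGACGTCA), the ETS site (CCGGAAG) and the E-box (CACGTG). None of the 6 contains another. NEAT1 (chr11:65190025-65190324, plus strand) scaffolds the paraspeckle, SNHG15 (chr7:45026120-45026419, minus strand) is named as a host gene of snoRNAs and NORAD (chr20:34638891-34639190, minus strand) binds PUMILIO proteins and is induced by DNA damage. MIRLET7A1HG (chr9:96928321-96928620, plus strand) and MIR222HG (chrX:45629621-45629920, minus strand) are microRNA hosts, and LINC02086 (chr17:46724035-46724334, plus strand) had a peak upon both RECQL5 hairpins and none in the shCTRL list.
NEAT1: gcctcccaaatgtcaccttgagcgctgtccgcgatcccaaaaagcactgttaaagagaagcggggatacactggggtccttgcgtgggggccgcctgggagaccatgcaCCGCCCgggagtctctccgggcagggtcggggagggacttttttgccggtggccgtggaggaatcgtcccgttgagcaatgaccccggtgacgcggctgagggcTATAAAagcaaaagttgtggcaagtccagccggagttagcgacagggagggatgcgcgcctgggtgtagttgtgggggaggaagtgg
SNHG15: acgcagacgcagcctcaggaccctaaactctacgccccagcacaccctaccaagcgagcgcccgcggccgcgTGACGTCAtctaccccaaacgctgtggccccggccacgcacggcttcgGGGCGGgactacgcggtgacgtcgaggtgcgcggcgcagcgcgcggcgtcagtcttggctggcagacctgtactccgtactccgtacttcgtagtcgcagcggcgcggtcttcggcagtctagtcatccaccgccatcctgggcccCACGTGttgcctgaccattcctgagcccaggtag
NORAD: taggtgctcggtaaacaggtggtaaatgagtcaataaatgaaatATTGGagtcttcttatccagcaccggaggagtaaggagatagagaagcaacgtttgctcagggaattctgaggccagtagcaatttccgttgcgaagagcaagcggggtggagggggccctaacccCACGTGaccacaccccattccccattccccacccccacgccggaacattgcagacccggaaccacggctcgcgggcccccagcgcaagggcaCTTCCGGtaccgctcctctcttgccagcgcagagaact
MIRLET7A1HG: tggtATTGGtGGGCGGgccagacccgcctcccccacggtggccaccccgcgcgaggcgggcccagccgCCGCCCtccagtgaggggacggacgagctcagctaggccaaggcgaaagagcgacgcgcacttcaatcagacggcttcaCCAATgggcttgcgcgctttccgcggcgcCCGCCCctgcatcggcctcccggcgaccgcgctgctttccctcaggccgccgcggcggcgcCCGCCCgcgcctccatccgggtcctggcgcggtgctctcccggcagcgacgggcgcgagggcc
MIR222HG: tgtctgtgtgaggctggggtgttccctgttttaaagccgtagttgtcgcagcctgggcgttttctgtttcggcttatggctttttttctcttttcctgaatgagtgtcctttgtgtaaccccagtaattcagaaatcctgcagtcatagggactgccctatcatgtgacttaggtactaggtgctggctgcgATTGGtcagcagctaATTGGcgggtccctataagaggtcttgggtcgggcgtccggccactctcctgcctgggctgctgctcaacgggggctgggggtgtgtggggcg
LINC02086: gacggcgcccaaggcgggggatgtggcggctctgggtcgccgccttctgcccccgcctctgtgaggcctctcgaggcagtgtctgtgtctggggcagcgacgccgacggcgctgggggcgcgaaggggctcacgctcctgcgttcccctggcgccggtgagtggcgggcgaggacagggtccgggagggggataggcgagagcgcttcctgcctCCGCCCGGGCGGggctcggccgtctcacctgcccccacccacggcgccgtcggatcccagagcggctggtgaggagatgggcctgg

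The NEAT1 sequence holds TATAAA with its first base 37 bases before the TSS. In SNHG15 the 8 letters of the CRE begin 178 bases before the TSS, and an E-box lies 16 bases past it. An E-box in NORAD begins 80 bases before the TSS. MIRLET7A1HG holds 4 GC boxes and 2 CCAAT boxes, whereas MIR222HG holds 2 CCAAT boxes and no GC box. In LINC02086 the only matches are 2 GC boxes, which begin 36 and 30 bases before the TSS. A match describes the letters and is not a site shown to be bound.

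Hosted microRNAs were counted for most, not all, of the genes with a promoter peak, since a chromosome was left out of this count. The count gave 66 microRNA genes in 49 hosts. It is not complete for the genes counted either. It held no microRNA gene for some microRNA hosts described below, such as MIR17HG and MIR29B2CHG. The 66 also include an entry named TRNAI2. Of the 66, 47 matched an entry of the RefSeq table (GRCh38.p14), with 80 mature microRNAs. Mature sequences from hosts described below are shown with the seed, bases 2 to 8, in capitals. The 5p let-7 microRNAs of MIRLET7A1HG (let-7a, let-7f and let-7d), of MIRLET7BHG (let-7a and let-7b) and of MIR99AHG (let-7c) share the seed GAGGUAG. The 3p microRNAs of MIR222HG share GCUACAU, and the 5p microRNAs of MIR181A1HG share ACAUUCA. Mature microRNAs listed from the opposite arms have other seeds and are not shown.
let-7a-5p: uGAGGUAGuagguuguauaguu
let-7f-5p: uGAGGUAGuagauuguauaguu
let-7d-5p: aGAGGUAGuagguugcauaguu
let-7b-5p: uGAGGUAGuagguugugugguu
let-7c-5p: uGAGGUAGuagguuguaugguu
miR-221-3p: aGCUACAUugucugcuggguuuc
miR-222-3p: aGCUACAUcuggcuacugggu
miR-181a-5p: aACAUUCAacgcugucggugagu
miR-181b-5p: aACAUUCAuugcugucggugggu

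To ask whether RECQL5 depletion altered the number of these promoter peaks, the hairpin lists were compared with the shCTRL list. Stand-alone lncRNA promoter peaks were 3.09-fold more numerous upon shRNA5 (interval 2.47 to 3.86) and 4.10-fold more numerous after shRNA7 (interval 3.30 to 5.09). At protein-coding promoters the folds were 2.70 (interval 2.58 to 2.82) and 3.23 (interval 3.09 to 3.38), and the intervals overlap those of the lncRNA promoters. Over all peaks the folds were 4.48 (interval 4.35 to 4.62) and 6.08 (interval 5.90 to 6.26), which lie above both lncRNA intervals. The share of the list at stand-alone lncRNA promoters was 1.93% in the shCTRL list (interval 1.59 to 2.34%), 1.33% with shRNA5 (interval 1.19 to 1.48%) and 1.30% after shRNA7 (interval 1.18 to 1.43%). Both hairpin comparisons rest on the same shCTRL library. These differences depended on the peaks kept. With a fold enrichment of at least 10 over local background the lncRNA folds were 1.54 (interval 1.19 to 2.0) and 2.11 (interval 1.65 to 2.70), and those of all peaks were 1.29 and 1.93, below them. The shares of the list were then 2.15% (shCTRL), 2.57% (shRNA5) and 2.35% (shRNA7), so their order turned. With a significance score (−log10 of p, times 10) of at least 100 the lncRNA folds were 4.54 and 6.61, and those of all peaks were 6.02 and 8.74. In hairpin lists of equal length the shares were 1.93%, 1.66% (interval 1.35 to 2.05%) and 1.63% (interval 1.32 to 2.0%), with overlapping intervals.

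In the doxycycline arm the difference was in the other direction. With doxycycline there were 0.699 times as many lncRNA promoter peaks as without it (interval 0.617 to 0.792), against 0.812 times at protein-coding promoters (interval 0.790 to 0.835) and 0.720 times over the whole list (interval 0.710 to 0.730). The shares of the lists had overlapping intervals, at 1.28% without the drug (interval 1.18 to 1.38%) and 1.24% with it (interval 1.13 to 1.36%).

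**Figure D1:**
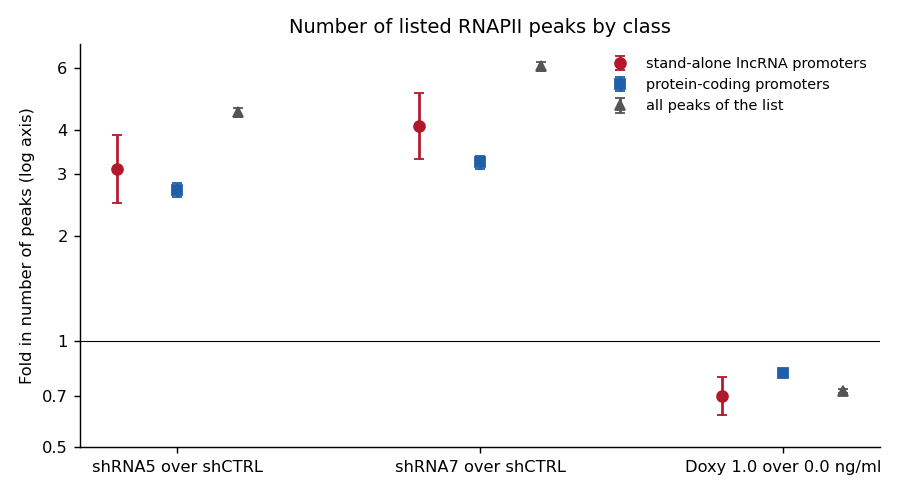
Fold in the number of RNAPII peaks (log axis) upon shRNA5 or shRNA7 over shCTRL, and with over without doxycycline, for stand-alone lncRNA promoters, protein-coding promoters and all peaks. Points are folds of single libraries and bars are 95% counting intervals. The lncRNA folds are 3.09, 4.10 and 0.699, and both hairpin values sit below those of all peaks.

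Lists were also compared as genes. Of 9162 stand-alone lncRNA genes, 1.47% had a summit at a TSS in the shCTRL list, 4.13% after shRNA5, 5.35% after shRNA7, 7.18% without doxycycline and 5.24% with it. The same shares among 19833 protein-coding genes were 15%, 38.0%, 44.7%, 54.3% and 45.8%. A summit in any list was found at 790 lncRNA genes (8.62%) and 11675 protein-coding genes (58.9%), and in all 5 lists at 102 (1.11%) and 2434 (12.3%). These counts let a summit serve every gene with a TSS in reach, while in what follows each peak was given to the gene of the nearest TSS, which left 63 genes with such a peak in all 5 lists.

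When any peak that reached to within 500 bp of a TSS was allowed, 111 of the 707 genes had one in all 5 lists. The most frequent pattern was another, with 183 genes that had a peak in every list but shCTRL. A peak only without doxycycline was found at 116 genes, one only upon shRNA7 at 44, one only with doxycycline at 12, and one in the 2 doxycycline lists alone at 53. In total 237 genes had a peak upon both RECQL5 hairpins and none in the shCTRL list. Of these, 183 had a peak in both doxycycline lists, 33 without doxycycline alone, 8 with it alone and 13 in neither. Most of the genes that had a peak upon depletion and not with the control hairpin were thus also listed in T-REx cells that had no hairpin. The shCTRL list was the shortest of the 5, and these patterns were not counted for protein-coding genes.

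**Figure D2:**
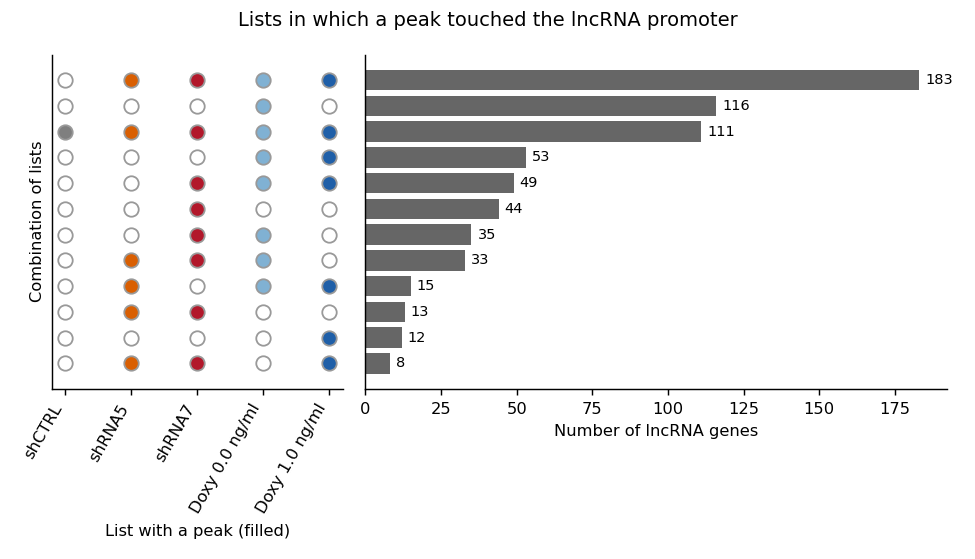
Number of stand-alone lncRNA genes (horizontal axis) with each pattern of promoter peaks over the 5 lists. The longest bar, 183 genes, is a peak in every list but shCTRL, followed by 116 genes listed only without doxycycline and 111 genes listed in all 5.

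The overlap of single peaks, of at least 1 bp, showed which peaks the lists had in common. Of the 102 shCTRL peaks, 94 were overlapped by an shRNA5 peak and 94 by an shRNA7 peak (92.2% each, interval 85.3 to 96.0%). At protein-coding promoters these shares were 99.0% and 93.2%, and over all shCTRL peaks 97.4% and 88.4%. Between the hairpins, 281 of the 315 shRNA5 peaks had a counterpart with shRNA7 (89.2%, interval 85.3 to 92.2%), compared with 93.8% at protein-coding promoters and 85.2% of all peaks. Of the 420 peaks with doxycycline, 377 had a counterpart without it (89.8%, interval 86.5 to 92.3%), compared with 94.2% at protein-coding promoters and 61.8% of all peaks.

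Seen from the longer lists, 223 of the 315 shRNA5 peaks had no shCTRL counterpart (70.8%), against 81% of all shRNA5 peaks. Upon shRNA7 it was 323 of 418 (77.3%), against 88.3% of all shRNA7 peaks. Without doxycycline 232 of 601 peaks had no counterpart in the list with the drug (38.6%), against 54.4% of all peaks, and with doxycycline 43 of 420 had none in the list without (10.2%), against 38.2%. Peaks at protein-coding promoters lacked a counterpart less often still, in 64.1% (shRNA5), 72.2% (shRNA7), 23.7% (without doxycycline) and 5.81% (with it). The 4 lncRNA shares lay between those of protein-coding promoters and of all peaks.

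Where a peak was shared, its tags were compared, without correction for library depth. The median lncRNA promoter peak of the shCTRL list had 1.90 times the tags upon shRNA5 (interval 1.81 to 2.05) and 2.71 times upon shRNA7 (interval 2.57 to 3.06), while the ratios were 2.02 and 3.33 at shared protein-coding promoter peaks and 2.38 and 4.94 over all shared peaks. Tags were at least 2-fold higher at 44 of 94 peaks upon shRNA5 (46.8%), against 62.9% of all shared peaks, and at 83 of 94 upon shRNA7 (88.3%), against 91.1%. At shared protein-coding promoter peaks these shares were 51.5% and 86.9%. None of the 94 had 2-fold fewer tags upon either hairpin. The shared lncRNA promoter peaks were also wider, with median length ratios of 1.33 after shRNA5 and 1.61 after shRNA7. Length ratios were 1.49 and 2.13 at shared protein-coding promoter peaks, and 1.76 and 3.15 over all shared peaks. The tags per kb of lncRNA promoter peak were 1.35 and 1.64 times those of the control. These ratios were 1.33 and 1.56 at shared protein-coding promoter peaks, and 1.38 and 1.66 over all shared peaks.

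With doxycycline the median ratio was 0.943 (interval 0.876 to 1.00) over 369 shared lncRNA promoter peaks. It was 1.01 at shared protein-coding promoter peaks and 1.25 over all shared peaks. Tags were at least 2-fold higher at 21 of the 369 (5.69%), against 27.6% of all shared peaks, and at least 2-fold lower at 31 (8.40%), against 5.72%. At shared protein-coding promoter peaks the same shares were 6.87% and 6.17%. The lncRNA promoter peaks were narrower with the drug, with a median length ratio of 0.854, and slightly denser, with 1.11 times the tags per kb. Length ratios were 0.900 at shared protein-coding promoter peaks and 0.990 over all shared peaks, and the ratios of tags per kb were 1.14 and 1.33.

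Within each list the lncRNA promoter peaks covered a wide range. The median held 87 tags in the shCTRL list, 89 after shRNA5, 116 after shRNA7, 27 without doxycycline and 35 with it, against 86, 104, 134, 35 and 42 at protein-coding promoters. The middle 50% of peaks lay between 67.25 and 118.75 tags in the shCTRL list and between 72 and 192 upon shRNA7. Median lengths were 1580, 1607 and 1811 bp in the shCTRL, shRNA5 and shRNA7 lists and 845 and 856.5 bp without and with doxycycline. Tag numbers and lengths are compared only within an arm, since the doxycycline lists reach far weaker and shorter peaks.

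The nuclear body lncRNAs NEAT1 and MALAT1 neighbour each other on chromosome 11, and both had a promoter peak in all 5 lists. NEAT1 (65190245 to 65213011, plus strand), whose promoter with its TATA box is printed above, had a peak of 860 tags in the shCTRL list, 2855 after shRNA5 and 5770 after shRNA7, and of 791 and 797 tags without and with doxycycline. The peak was 7880 bp long in the shCTRL list, and 25800 and 30841 bp upon shRNA5 and shRNA7, where it ran past both ends of the gene. Within 5 kb of NEAT1 all listed peaks together held 1192, 2896 and 5770 tags in the shCTRL, shRNA5 and shRNA7 lists. MALAT1 (65265111 to 65275544) had 862, 2223 and 3725 tags in the hairpin lists and 737 and 887 without and with doxycycline. Its peak was 9719 bp long in the shCTRL list, and 11072 and 12277 bp upon the hairpins.

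Among the other genes listed in all 5 lists with many tags, several overlap copies of spliceosomal RNA genes. ENSG00000276216 on chromosome 1, at the U1 variant RNVU1-14, had 573 tags in the shCTRL list, 1003 after shRNA5, 1875 after shRNA7, 901 without doxycycline and 656 with it. ENSG00000287670 on chromosome 2, at the U2 copy RNU2-63P, had 335, 621, 1045, 371 and 300 tags in the same order. ENSG00000285646 on chromosome 1, at the U5 gene RNU5E-1, had 825, 1494 and 2007 tags in the hairpin lists, and 1116 and 957 in the doxycycline lists. Upon both hairpins these genes had more tags than in the shCTRL list, and with doxycycline fewer than without it. The same order was seen at ENSG00000287979 (RNVU1-16), ENSG00000224481 (RNU1-122P) and ENSG00000287190 (RNVU1-6), which had 708, 450 and 459 tags without doxycycline and 431, 394 and 395 with it. In the number of lncRNA promoter peaks at small RNA genes the lists differed little, with 7, 8, 10, 10 and 11 from shCTRL to doxycycline.

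ENSG00000262202 spans bases 19015313 to 19015949 of chromosome 17 (minus strand). A stretch of 239 bases is identical, on the opposite strand of the reference, to SNORD3A, a gene of the U3 snoRNA, so its tags cannot be assigned to one of the copies. Its peak held 856 tags in the shCTRL list, 1259 after shRNA5 and 1787 after shRNA7, and 1405 and 839 without and with doxycycline. ENSG00000225218 on chromosome 21 had 338 tags in the shCTRL list, 1756 after shRNA5 and 2051 after shRNA7, and 109 and 49 without and with doxycycline. ENSG00000260369 on chromosome 17 had 113, 323 and 627 tags in the hairpin lists, and 173 and 169 tags in the doxycycline lists.

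**Figure D3:**
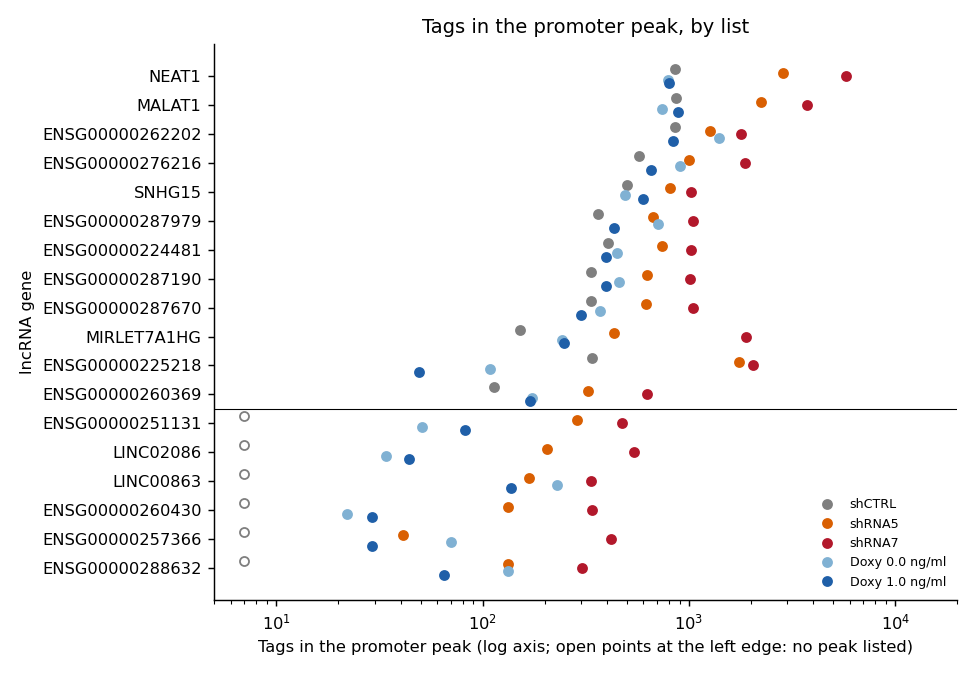
Tags (log axis) in the promoter peak of named lncRNA genes in each of the 5 lists, 1 point per library. NEAT1 is at 860 tags in the shCTRL list, at 5770 upon shRNA7 and at 791 and 797 without and with doxycycline.

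Genes known as snoRNA hosts were then followed. Of 22 genes listed as such, 7 stand apart from protein-coding genes and 5 of these had a promoter peak, in 4, 4, 4, 5 and 5 cases from shCTRL to doxycycline. SNHG15, whose CRE is printed above, had 500 tags in the shCTRL list, 807 after shRNA5 and 1022 after shRNA7, and 491 and 599 tags without and with doxycycline. SNHG30 had 130, 194 and 403 tags in the hairpin lists and 73 and 98 in the doxycycline lists. DANCR, studied as a repressor of differentiation, had 69, 83 and 458 tags in the hairpin lists and 114 and 113 in the other arm. The annotation used here places snoRNAs inside SNHG17, SNHG30 and DANCR, none inside SNHG15 or CYTOR, and the microRNA gene MIR4435-1 inside CYTOR. CYTOR had no peak in the shCTRL list, 145 and 216 tags upon shRNA5 and shRNA7, and 92 and 63 tags without and with doxycycline. These 4 genes had more tags upon each hairpin than with the control, whereas SNHG17 had none, as described below.

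Of 24 microRNA hosts, 23 were found in the annotation, 19 stand alone and 12 had a promoter peak, with 4, 7, 8, 11 and 10 of them from the shCTRL list to the doxycycline list. MIR181A1HG, host of miR-181a and miR-181b, had 49 tags in the shCTRL list, 339 after shRNA5 and 491 after shRNA7, and 27 and 50 tags without and with doxycycline. MIR222HG, host of miR-221 and miR-222, had no shCTRL peak, and had 156 and 255 tags upon shRNA5 and shRNA7 and 113 and 155 without and with doxycycline. MIR9-1HG likewise had none in the shCTRL list, then 83 and 166 tags upon the hairpins, and 18 and 54 in the doxycycline arm. MIR4435-2HG had 159 and 146 tags upon the hairpins and 94 and 82 in the doxycycline arm, again with no shCTRL peak. MIR17HG, host of the miR-17-92 cluster, had 56, 105 and 1488 tags in the hairpin lists, the last in a peak of 15194 bp with its summit away from the TSS, and 144 and 100 without and with doxycycline. That shRNA7 peak also overlapped a separate peak of 385 tags in the shCTRL list and of 959 tags in the shRNA5 list. Within 5 kb of MIR17HG all listed peaks together held 441, 1112 and 1665 tags in the shCTRL, shRNA5 and shRNA7 lists.

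Some microRNA hosts were listed in few libraries. MIR31HG had 159 tags upon shRNA7 and 25 and 20 in the doxycycline arm, and no peak in the shCTRL and shRNA5 lists. MIR29B2CHG had 61, 18 and 15 tags in the same lists. MIR503HG had a peak only upon shRNA7, with 74 tags, and MIRLET7BHG only without doxycycline, with 23. MIR99AHG, the host of let-7c, had 100 tags upon shRNA7 and 11 and 29 tags without and with doxycycline. LINC00472 was listed in each library, with 58, 123 and 119 tags in the hairpin lists and 40 and 22 in the doxycycline lists.

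MIRLET7A1HG on chromosome 9 was among the genes listed in every library, with 151 tags in the shCTRL list, 431 after shRNA5, 1886 after shRNA7, and 243 and 247 without and with doxycycline. Its peak was 2293 bp long in the shCTRL list, 6292 bp upon shRNA5 and 20151 bp upon shRNA7, against 2165 and 3056 bp in the doxycycline lists. Upon shRNA7 it ended at 96947077 and covered the genes of let-7a, let-7f and let-7d, which lie between 96938234 and 96941202, while upon shRNA5 it ended at 96933659, before them.

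A further 3 lists of genes were on the p53 pathway and DNA damage, on cancer and on stem cells and neurons. Of 10 genes of the p53 and DNA damage list 5 stand alone, and NORAD, LINC-PINT and NEAT1 had promoter peaks. NORAD had 86 tags in the shCTRL list, 556 after shRNA5 and 764 after shRNA7, with peak lengths of 1312, 7412 and 8014 bp, and 88 and 85 tags without and with doxycycline. LINC-PINT had 100 and 59 tags upon shRNA5 and shRNA7, no shCTRL peak, and 19 and 35 tags in the doxycycline arm.

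Of 26 lncRNA genes studied in cancer, 18 stand alone and 7 had a promoter peak, in 4, 3, 3, 7 and 5 cases from shCTRL to doxycycline. LINC00511 had 56, 126 and 193 tags in the hairpin lists and 38 and 55 in the doxycycline lists. PVT1 had a peak of 107 tags upon shRNA7 and of 29 tags in both doxycycline lists, and HCP5 had 50 tags in the shCTRL list, none after shRNA5, 81 after shRNA7, and 19 and 26 in the other arm. LUCAT1 and LINC01116 were listed only without doxycycline, with 12 and 11 tags. Of 16 stem cell and neural lncRNA genes, 8 stand alone and 2 had a promoter peak. LINC00662 had 272, 331 and 443 tags in the hairpin lists and 106 and 128 in the doxycycline lists, and LINC00461 had 50 tags upon shRNA7 alone. None of the 5 stand-alone imprinted lncRNA genes had a promoter peak in any list.

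At 159 genes a promoter peak was listed upon both RECQL5 hairpins and no shCTRL peak overlapped it. The same number was not counted for protein-coding genes. The 6 of the 159 genes with the most tags were chosen for those tags, so their values are a description. ENSG00000251131 on chromosome 5 had 286 and 475 tags upon shRNA5 and shRNA7, and 51 and 82 without and with doxycycline. LINC02086 on chromosome 17 had 204 and 541 tags upon the hairpins and 34 and 44 in the other arm, and ENSG00000260430 on chromosome 16 had 132 and 340, and 22 and 29. At each of these 3 genes the count was higher with shRNA7 than with shRNA5, and higher with doxycycline than without it. LINC00863 had 167 and 335 tags upon the hairpins and 230 and 137 in the doxycycline arm, ENSG00000288632 had 133 and 303, and 132 and 65, and ENSG00000257366 had 41 and 418, and 70 and 29.

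In all, 4 shCTRL peaks at 3 genes had no counterpart upon either hairpin. Over all shCTRL peaks 2.57% had no shRNA5 counterpart and 11.6% no shRNA7 counterpart, and the share without either was not counted. SNHG17 on chromosome 20, host of 4 snoRNAs of the SNORA71 family, had 2 of these 4 peaks, with 117 and 96 tags. Another peak of 649 tags lay within the gene. No peak was listed within 5 kb of SNHG17 upon shRNA5 or shRNA7, whereas without and with doxycycline its strongest promoter peaks held 715 and 957 tags over 12427 and 14560 bp. The other 2 were a peak of 313 tags at FTX on chromosome X and one of 200 tags at ENSG00000291175 on chromosome 17. ENSG00000291175 had a peak at another of its TSSs upon both hairpins, with 329 tags (shRNA5) and 472 tags (shRNA7). FTX had another peak of 256 tags upon shRNA5 and none at a TSS upon shRNA7, while its neighbour JPX had 386 and 957 tags in the shCTRL and shRNA5 lists and none upon shRNA7. DLEU2 on chromosome 13 had 70 and 586 tags in the shCTRL and shRNA5 lists, no promoter peak upon shRNA7, and 100 and 122 in the doxycycline lists, although 13 peaks within 5 kb of DLEU2 held 3591 tags upon shRNA7. The cause of these gaps was not tested.

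In the doxycycline arm 215 genes had a promoter peak without the drug that no peak with the drug overlapped, and 38 genes had the reverse. As peaks these were 38.6% and 10.2% of the lncRNA promoter peaks, against 54.4% and 38.2% of all peaks. At protein-coding promoters the shares were 23.7% and 5.81%, and genes were not counted there. Among the 215 genes, the most tags were 61 at ENSG00000290948, 58 at ULK4P2, 54 at ULK4P1 and 53 at ENSG00000290946, all on chromosome 15, then 46 at PCBP1-AS1 and 42 at ENSG00000291133. ULK4P1 and ULK4P2 are partial copies of ULK4. PCBP1-AS1 had a further promoter peak of 24 tags with doxycycline. These strongest peaks listed only without the drug, at 42 to 61 tags, were small next to those of SNHG15 or NEAT1. They were above the median lncRNA promoter peak of the list without the drug, which held 27 tags. Among the 38, MIR663AHG on chromosome 20 had 146 tags with doxycycline and no peak in the other 4 lists, and ENSG00000283061 on chromosome 7 had 105. The others were ENSG00000253227 with 38 tags, LINC-PINT with 35, LINC01122 with 31 and MIR99AHG with 29. LINC-PINT and MIR99AHG had a peak at another position without the drug.

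Some lncRNA genes lie in copied sequence, so the uniqueness of the sequence under each peak was measured as the share of 32-base words, in 300 bases around the summit, that occur elsewhere in the genome. Over 50% of the words were repeated at 20.6% of the lncRNA promoter peaks in the shCTRL list, 19.7% after shRNA5, 18.7% after shRNA7, 29.8% without doxycycline and 22.1% with it, against 1.39% of shCTRL peaks at protein-coding promoters. Single reads cannot be placed with certainty in such sequence. In peaks with at most 50% repeated words, an alternative added once the data had been seen, the folds in number were 3.12 upon shRNA5 (interval 2.43 to 4.01), 4.20 upon shRNA7 (interval 3.30 to 5.35) and 0.777 with doxycycline (interval 0.672 to 0.897). In peaks with over 50% they were 2.95, 3.71 and 0.520 (interval 0.405 to 0.667). The doxycycline intervals of the repeated and the other peaks do not overlap.

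The same held for single peaks. Without a doxycycline counterpart were 134 of 421 peaks with few repeated words (31.8%, interval 27.6 to 36.4%) and 97 of 179 peaks with over 50% (54.2%, interval 46.9 to 61.3%). Of the genes named above, ULK4P1, ULK4P2, ENSG00000290948, ENSG00000290946, ENSG00000283061, LINC00863, ENSG00000257366, ENSG00000262202, ENSG00000287979, CYTOR and MIR4435-2HG lie in repeated sequence, and their values may include reads from other copies. Whether repeated sequence set any of these differences was not tested. Pseudogenes lay within 500 bp of the summit at 161 of the 707 genes, and the folds of such peaks were 3.59 after shRNA5, 5.12 after shRNA7 and 0.688 with doxycycline, with wide intervals that include the folds of peaks at neither pseudogenes nor small RNA genes (3.15, 4.12 and 0.694).

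What the promoters share in sequence was asked over 250 bp on either side of the TSS. A promoter was called CpG-rich with at least 50% GC and an observed to expected CpG ratio of at least 0.6. For lncRNA genes with a peak, the TSS was the one given to peaks in most lists. In the other groups it was that of the transcript with the lowest identifier, so the groups also differ in how the TSS was chosen. Of the 111 genes with a peak in all 5 lists 84 were CpG-rich (75.7%, interval 66.9 to 82.7%), and the share was 71.4% in genes with a peak in 3 or 4 lists (interval 66.1 to 76.2%) and 49.5% in those with 1 or 2 (interval 43.8 to 55.2%). Only 6.24% of the 8364 stand-alone lncRNA genes without a summit in any list were CpG-rich (interval 5.74 to 6.78%). Protein-coding genes with a summit were at 83.6%, and those without at 32.4%. Median GC was 61.1% at the lncRNA genes with a peak and 45.7% at those without a summit.

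**Figure D4:**
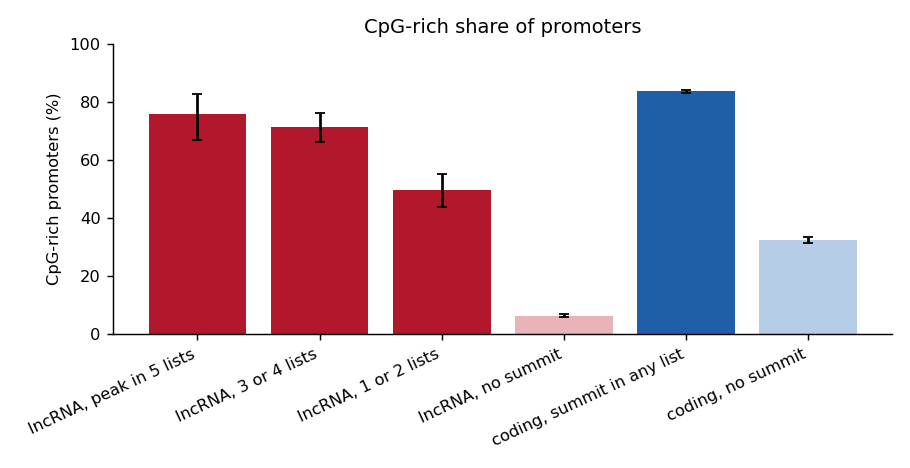
Percent of promoters that are CpG-rich (bars from 0, with 95% Wilson intervals) in stand-alone lncRNA genes by the number of lists with a peak, and in lncRNA and protein-coding genes with and without a summit. The share is 75.7% with a peak in 5 lists, 49.5% with 1 or 2 and 6.24% without a summit. The TSS was that of the peak for lncRNA genes with a peak, and that of the lowest transcript identifier in the other groups.

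Letters were searched at the same TSSs as for the CpG-rich share, and over all promoters at that of the transcript with the lowest identifier. Of the 6 sets of letters, the GC box differed most in percentage points. It was present in 43.1% of all 28995 promoters searched, in 65.8% of the lncRNA promoters with a peak in 5 lists, 62.2% with 3 or 4, 46.2% with 1 or 2 and 10.6% of those without a summit. TATAAA was present in 13.0% of all promoters, and in 9.91% of lncRNA promoters with a peak in 5 lists and 19.7% of those without a summit. CCAAT was present in 36.2% of all promoters and in 47.7% of lncRNA promoters with a peak in 5 lists. It was present in 33.2% of lncRNA promoters with a peak in 3 or 4 lists, 30.8% with 1 or 2 and 38.1% without a summit. The CRE was rare, in 1.95% of all promoters, 0.394% of those without a summit, and 14 of the 111 with a peak in 5 lists (12.6%). Of these 14, SNHG15, LINC00174, PMS2P4, STAG3L4, STAG3L5P and 3 genes without a symbol lie on chromosome 7, some in copied sequence, and 4 of the 14 have over 50% repeated words, so they are not 14 independent promoters. CCGGAAG and CACGTG were present in 13.5% and 7.21% of promoters with a peak in 5 lists, against 9.99% and 7.12% of all.

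The position of the summit was described last. It lay downstream of the TSS in 61.8% of the shCTRL peaks, 55.9% after shRNA5, 57.7% after shRNA7, 57.6% without doxycycline and 60% with it. Within 100 bp of the TSS were 44.1%, 48.3%, 53.3%, 54.1% and 52.6%, compared with 59.1%, 51.7%, 59.9%, 64.5% and 63.8% at protein-coding promoters. A second lncRNA TSS on the other strand and within 1000 bp was found at 29.4% of the shCTRL peaks (interval 21.4 to 38.9%), 19.7% after shRNA5, 17.5% after shRNA7, 15.8% without doxycycline and 17.1% with it. Near the limit of the rule, between 400 and 500 bp from the TSS, the lists held 6, 19, 21, 46 and 22 peaks with medians of 82, 81, 157, 18.5 and 37.5 tags. Between 500 and 600 bp they held 6, 14, 20, 40 and 18 peaks with medians of 135, 85.5, 85, 13 and 28 tags.

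**Figure D5:**
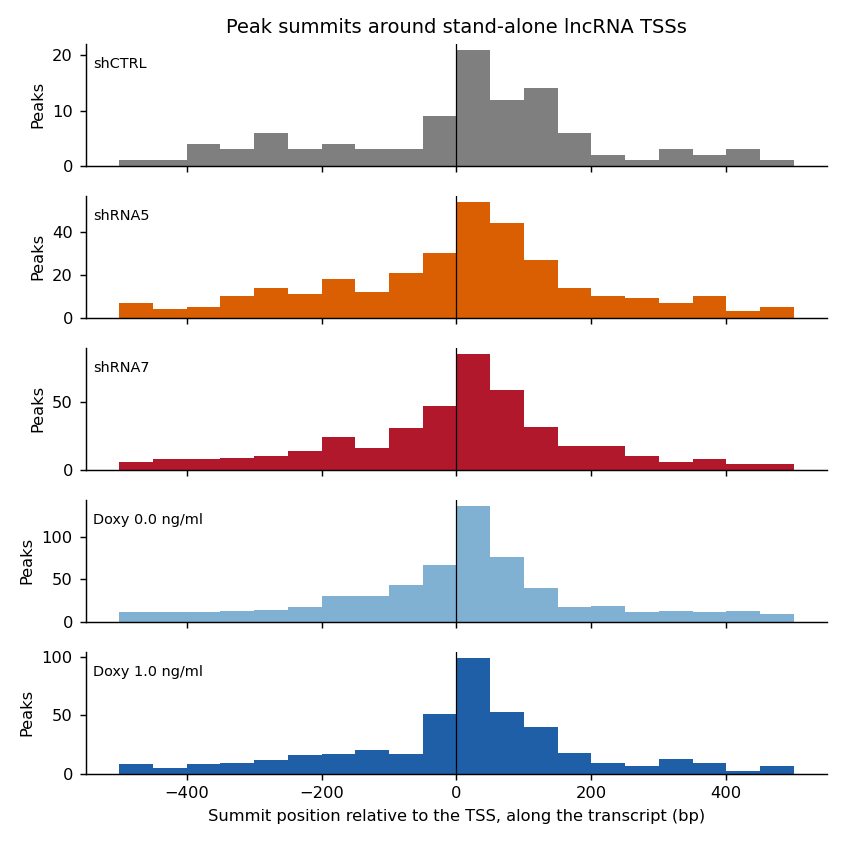
Distance in bp from the lncRNA TSS to the peak summit, along the direction of transcription, in each of the 5 lists. Between 44.1% (shCTRL) and 54.1% (no doxycycline) of the summits lie within 100 bp of the TSS.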

How the data were processed

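The authors' reads were processed, per the labels, with CASAVA 1.8, Bowtie 0.12.7 and MACS 1.4.2 on hg19 (GRCh37), and the authors removed reads in blacklisted regions. The 5 deposited lists give each peak's position, length, summit and the count of tags, not normalised by the authors. The authors' p-value is deposited as −10 times log10, a −log10 significance score of at least 50 in every list. The deposited fold enrichment is the authors' ratio over local background, and the deposited false discovery rate (FDR) is a percent from swapping RNAPII and IgG. Library read totals were not used here. The single untreated IgG library was taken as the background of both doxycycline lists.

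TSSs and genes came from GENCODE release 44 lifted to GRCh37, which is later than the study. Shares have 95% Wilson intervals, folds the same intervals as odds, and medians order-statistic intervals. Python 3.11.15, numpy 2.4.6, pandas 2.3.3, scipy 1.17.1, pysam 0.24.0 and matplotlib 3.10.9 were used, and the functions were tested on simulated peaks. The members, gene lists and rules were chosen with earlier results of these data known. Named genes were the 12 with a peak in all 5 lists and most tags, the 6 with most tags upon both hairpins and no shCTRL peak, the 6 each listed only without or only with doxycycline that had most tags, the 2 highest scores a list, up to 4 shCTRL peaks absent upon both hairpins, and members of the fixed gene lists. JPX was added after its values were seen. The X inactivation transcript and Y-linked peaks are not named, and they were left out of the ranges of tags. Upon shRNA7, 88 of 418 lncRNA promoter peaks (21.1%) had an FDR above 5%, against 32.6% of the list, and no other list had such a lncRNA promoter peak. Alternatives were stricter peaks, merged peaks, other windows, distances, transcripts and overlaps, and lists of equal length.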

Additional observations from a re-analysis of the deposited data

How the results depend on the processing

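No paired analysis was possible because a single library stands for each condition, and for the same reason leaving out a library was not run. Of 121 recomputed values 76 stayed within the counting interval of the main value and 45 moved out of it. For the number of genes, which has no interval, a limit on the ratio was used. Direction was checked for the folds alone, of which 0 turned, and the cause was not tested unless stated. Below, shares of the list follow the order shCTRL, shRNA5, shRNA7, no doxycycline, doxycycline, and name the lists they cover.

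A significance score of at least 100 gave folds of 4.54 (shRNA5) and 6.61 (shRNA7), shares of the list of 2.10%, 1.58%, 1.59%, 2.25% and 1.91% over the 5 lists, so that the list without doxycycline stood above shCTRL, an overlap of 95% of doxycycline peaks, and 28 genes with a promoter peak in all 5 lists. An FDR of at most 5% gave an shRNA7 fold of 3.24, a share of 1.53% upon shRNA7 and 80.6% of shRNA5 peaks overlapped upon shRNA7. Over all peaks the folds were then 4.49 (shRNA5) and 4.10 (shRNA7), so that shRNA7 fell below shRNA5. Fold enrichment of at least 10 moved the folds most, to 1.54 (shRNA5), 2.11 (shRNA7) and 0.496 (doxycycline), against 1.29, 1.93 and 0.346 over all peaks. Shares were then 2.15% (shCTRL), 2.57% (shRNA5), 2.35% (shRNA7), 1.38% (no doxycycline) and 1.97% (doxycycline). Thus shCTRL fell below both hairpin lists and the order of the doxycycline lists turned as well. The same limit gave overlaps of 84.8% and 80.4% of shCTRL peaks (shRNA5, shRNA7), 78.9% of shRNA5 peaks and 97.1% of doxycycline peaks.

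Joining peaks that lay under 1 kb apart gave shares of 1.63%, 1.62%, 1.68% and 1.70% from shRNA5 on, since fewer peaks remain in each list. A TSS window of 1000 bp gave 1.55%, 1.54%, 1.58% and 1.42% from shRNA5 on. A distance of over 10 kb from protein-coding genes gave 1.55%, 1.07%, 1.07%, 1.09% and 1.03% over the 5 lists. Basic transcripts alone gave 1.18%, 1.13% and 1.12% from shRNA7 on. Lists of equal length gave 1.66% (shRNA5), 1.63% (shRNA7) and 1.55% (no doxycycline). Requiring 50% of both peaks, which can only lower an overlap, gave 74.5% and 56.9% of shCTRL peaks (shRNA5, shRNA7), 72.7% of shRNA5 peaks and 77.9% of doxycycline peaks. Counting any peak that touched the 500 bp around a TSS, chosen after seeing the data, gave 111 genes in all 5 lists in place of 63.

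The lists hold only peaks past a threshold, so a promoter without a peak can still carry RNAPII. Tags were not scaled by depth, and differences between single libraries have no replicate check. Annotation later than the study decides which lncRNA genes are counted.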

Other observations

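Inside the transcribed part of 586 lncRNA genes of at least 2 kb with a promoter peak, beyond the promoter window, the lists held 35 further peaks in the shCTRL list, 239 after shRNA5, 380 after shRNA7, 894 without doxycycline and 466 with it. These lay in 24, 130, 156, 213 and 118 genes. For each promoter peak of these genes there were 0.407 body peaks in the shCTRL list, 0.916 after shRNA5, 1.12 after shRNA7, 1.76 without doxycycline and 1.35 with it. This ratio was not computed for protein-coding genes. In the whole lists, all peaks rose 4.48-fold (shRNA5) and 6.08-fold (shRNA7), and protein-coding promoter peaks 2.70-fold and 3.23-fold. With doxycycline these folds were 0.720 and 0.812. At DLEU2, host of microRNAs on chromosome 13, the gene and 5 kb on either side held 3 peaks with 191 tags in the shCTRL list, 20 peaks with 3786 tags upon shRNA5, 13 peaks with 3591 tags upon shRNA7, and 26 and 28 peaks with 565 and 884 tags without and with doxycycline.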
